A study of Danio rerio with 3 samples.

Results

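Whole zebrafish embryos carrying 2 disrupted copies of setd2 were compared with embryos carrying 1, at 36 hours post fertilization (hpf), gene by gene and by tissue or process. The comparison holds 1 library of setd2-/- embryos (homozygous, HO) and 1 library of setd2+/- embryos (heterozygous, HE). A library of wild type embryos (WT) is given beside them. The genes described are those with a mean of at least 10 counts over the 3 libraries, which kept 18966 of 32520 gene identifiers. At that limit, 81 genes with 30 counts in all were kept and 76 genes with 29 counts were left out. All embryos were of the Tubingen strain and the RNA was taken from the whole body. The mutations of the study are frame-shifts made with CRISPR/Cas9, and the labels do not say which mutant line was sequenced. The paper takes its E3fs1 line as the default model from its organ analyses onward. The paper calls the embryos littermates, and its general methods keep embryos in N-phenylthiourea (PTU) against pigmentation, without naming the sequenced ones. The number of embryos pooled in a library is not given in the sources used here. With 1 library per genotype no test between genotypes is possible, so each ratio has only the error that counting reads gives it, and any difference between the pools in parents, stage or handling cannot be told apart from the genotype.

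Setd2 is the methyltransferase that places the third methyl group on lysine 36 of histone H3 in the body of transcribed genes. It travels with elongating RNA polymerase II, and the mark is read by proteins that act in splicing, DNA repair, DNA methylation and the suppression of transcription starts inside genes. In a zebrafish embryo at this age the heart beats, red cells circulate, the trunk muscle contracts, the hatching gland is loaded with enzyme, and the yolk is still the only food.

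The libraries held 12760683 to 14160325 counts, and the 10 most abundant genes took 7.55% to 7.97% of them. Genes named as mitochondrial took 2.86% to 3.1%. All ratios are log2 values of HO over HE after scaling by TMM (trimmed mean of M values), with 2 counts added before the logarithm, so that a value of 1 is a doubling in the HO library. The interval beside a ratio is the exact 95% binomial interval of its counts, and covers counting error only. A count of 3, taken as the floor, corresponded to 0.211 to 0.238 CPM, which are counts scaled to a common library size. Defining markers of red cells, lens, muscle, heart, skin, hatching gland, notochord, pigment cells, myeloid cells, vessels, neurons, retina, ear and kidney had reads in all libraries, so the markers go with the label of whole body. Markers below the filter were fabp10a of the liver (2, 0 and 1 counts in the HO, HE and WT libraries), prss1 of the exocrine pancreas (6, 10 and 10 counts) and dnd1 of the germ cells (12, 8 and 7 counts). In such a mixture of tissues, fewer cells of a type and less RNA per cell cannot be told apart.

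The targeted gene itself was highest in the library labelled homozygous. There setd2 had 2087 counts (147 CPM), against 1380 counts (109 CPM) in the HE library and 1348 counts (100.3 CPM) in the WT library. The ratio was 0.42 (0.33 to 0.52), beyond counting error. No loss of setd2 transcript was thus seen under the homozygous label, so the setd2 count does not bear out that label. A frame-shift can leave the transcript in place or lower it, and reads over the whole gene do not show which allele they came from. By RT-qPCR at a later age, the paper reports a marked fall of setd2 mRNA in homozygotes of its default line. It reports no such change in another of its frame-shift lines. In the homozygous library's own table the FPKM column is headed with the heterozygous genotype. Its count column carries the homozygous heading and equals the homozygous counts of the series table. HO below means the library labelled homozygous, and the directions given rest on that label. The 20 measured genes on each side of setd2, in the gene order of the GRCz12tu annotation, had a median ratio of -0.10 with quartiles of -0.28 and 0.17. Of these 40 genes 13 were higher and 27 lower. Beyond counting error 6 were higher, beside 13.8% of all genes, and 7 lower, beside 15.2%. None of the 40 was at or past a ratio of 1, beside 2.69% of all genes, a share too small to tell much over 40 genes. The largest ratios among them were 0.70 for kel (78, 42 and 55 counts) and -0.64 for atg12 (58, 81 and 72 counts).

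Over all 18966 genes the ratios were narrow, with a median of -0.0092 and quartiles of -0.18 and 0.18. A ratio at or above 1 was reached by 272 genes (1.43%) and a ratio at or below -1 by 239 genes (1.26%), 511 genes in all (2.69%). At or above 0.5 there were 1451 genes (7.65%), and at or below -0.5 there were 1275 (6.72%), together 14.4%. The counting interval lay above 0 for 2609 genes (13.8%) and below 0 for 2876 (15.2%). Such intervals narrow with more reads, so these shares are not a like measure for lists of more abundant genes. The ratio was above 0 for 48.5% of genes and below 0 for 51.5%. Most large ratios belonged to genes with few reads. Of the tenth of genes with the lowest counts, 14.9% were at or past 1 in either direction, and of the tenth with the highest counts 0.211% were. Of the 14938 genes with at least 50 counts in the HO or HE library, 58 were at or above 1 and 54 at or below -1.

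**Figure D1:**
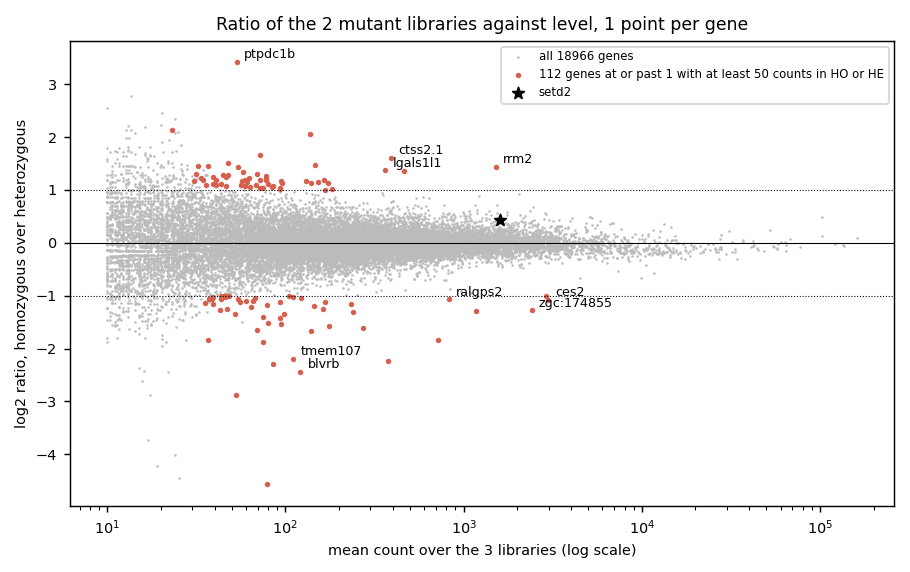
The log2 ratio of the homozygous over the heterozygous library (vertical axis) against the mean count over the 3 libraries (horizontal axis, log scale), 1 point per gene for 18966 genes, with the 112 genes at or past 1 that had at least 50 counts in red and setd2 as a star. The cloud is wide at 10 counts and narrow at high counts, where rrm2, ces2 and zgc:174855 stand outside it.

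Among genes with a proper name and at least 50 counts, blvrb was lowest in the HO library. This gene encodes biliverdin reductase B, which reduces products of haem breakdown and flavins. It had 38 counts in the HO library, 192 in the HE library and 133 in the WT library, a ratio of -2.45 (-3.05 to -2.0), or 5.45-fold lower in HO than in HE embryos. The HO library was below both others. The same order was seen for tmem107, a protein of the ciliary transition zone (43, 181 and 108 counts in the HO, HE and WT libraries, ratio -2.19), and for armc7, an armadillo repeat protein (42, 102 and 81 counts, -1.41). The tetraspanin tspan35 had 85 counts in the HO library, 227 in the HE library and 212 in the WT library (-1.57, -1.97 to -1.22), so that the HO library stood apart from the other two.

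A neighbouring pair of genes was lowest in the HO and highest in the WT library. Of fam198a (gask1a in the reference), a Golgi-associated kinase family member, the HO library had 23 counts, the HE library 108 and the WT library 123, a ratio of -2.30 (-3.12 to -1.74). Of entpd3, an enzyme that splits nucleotides outside the cell, it had 35, the HE library 86 and the WT library 160, a ratio of -1.42 (-2.08 to -0.89). In the GRCz12tu annotation both lie on the chromosome of setd2 with 0 protein-coding genes between them, and 159 protein-coding genes lie between entpd3 and setd2. Of fam198a the HE and WT libraries were close, while of entpd3 the HE library lay between. Where littermates are sorted by setd2 genotype, alleles linked to setd2 are sorted with it and cannot be told apart from it. On that chromosome 5 of 590 genes with at least 50 counts were at or below -1 and 1 was at or above 1, counting only genes whose symbol is unique and placed in the reference, which leaves out fam198a since it is listed there under its other name. Over all chromosomes there were 42 and 39 of 12936. Some chromosomes without setd2 had higher shares, with 9 of 472 at or below -1 on the chromosome of the cathepsin L genes described below and 4 of 418 on another. Beside entpd3 the 5 were ensab, an inhibitor of phosphatase 2A (78, 152 and 267 counts in the HO, HE and WT libraries, -1.11), the clone-named gene si:ch211-105c13.3 (118, 262 and 339, -1.31), and the tyrosine phosphatases ptpn6 of blood cells (47, 91 and 59, -1.09) and ptpn2a (75, 138 and 117, -1.03). Like entpd3, ensab and si:ch211-105c13.3 were lowest in the HO and highest in the WT library. The 1 gene at or above 1 on this chromosome was ctss2.1, described below (626, 181 and 364 counts, 1.61).

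The 3 ggact genes differed in another way. They encode gamma-glutamylamine cyclotransferases, which in mammals break down remnants of cross-linked proteins. Their summed counts were 336 in the HO library, 824 in the HE library and 287 in the WT library, a ratio of -1.47 (-1.65 to -1.28). Single genes had ratios of -1.62 (ggact.2, with 172, 473 and 175 counts), -1.26 (ggact.1, 35, 77 and 29 counts) and -1.25 (ggact.3, 129, 274 and 83 counts). In all 3 the HE library was high, and the WT library was close to the HO library or below it. How the counting split reads between these copies is not known. The poly(U)-specific endoribonuclease endouc was also highest in the HE library (80, 230 and 110 counts, -1.67), and the histone H3 gene hist2h3c was lower in the HO library at few reads (41, 87 and 65 counts, -1.22). Genes past -1 with many reads were ces2, a carboxylesterase (2059, 3865 and 2948 counts, -1.08), and ralgps2, an activator of Ral GTPases (546, 1020 and 904 counts, -1.07).

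The gene highest in HO over HE embryos was ptpdc1b, a phosphatase domain protein, with 81 counts in the HO library, 5 in the HE library and 74 in the WT library, a ratio of 3.42 (2.56 to 5.51). It was nearly absent from the HE library and alike in the other two. The HE library also stood apart, with smaller ratios, for the galectin lgals1l1 (456, 155 and 477 counts, 1.37), the polycomb-like gene scml4 (75, 25 and 73 counts, 1.35) and the vesicle traffic gene dennd1b (58, 20 and 56 counts, 1.29). Of the other highest genes, the WT library lay between the HO and HE libraries. Among these, the mitochondrial inner membrane protease oma1 had 119 counts in the HO library, 32 in the HE library and 64 in the WT library (1.67, 1.15 to 2.33). The cathepsin S gene ctss2.1, which lies on the chromosome of setd2 and encodes a lysosomal protease, had 626, 181 and 364 counts (1.61, 1.38 to 1.86). The gene abhd6a, a hydrolase of monoacylglycerols, had 729, 252 and 406 counts (1.35, 1.15 to 1.57). Both had many reads, and their intervals are narrow. The antioxidant enzyme gpx3 (71, 21 and 50 counts, 1.5), the coagulation inhibitor serpina10a (222, 70 and 147 counts, 1.47), the neuronal sodium channel scn1laa (53, 16 and 42 counts, 1.45) and the small GTPase partner RAP1GDS1 (54, 19 and 44 counts, 1.25) had the same order. In gpx3, serpina10a, scn1laa and RAP1GDS1 the WT library was nearer to the HO than to the HE library.

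**Figure D2:**
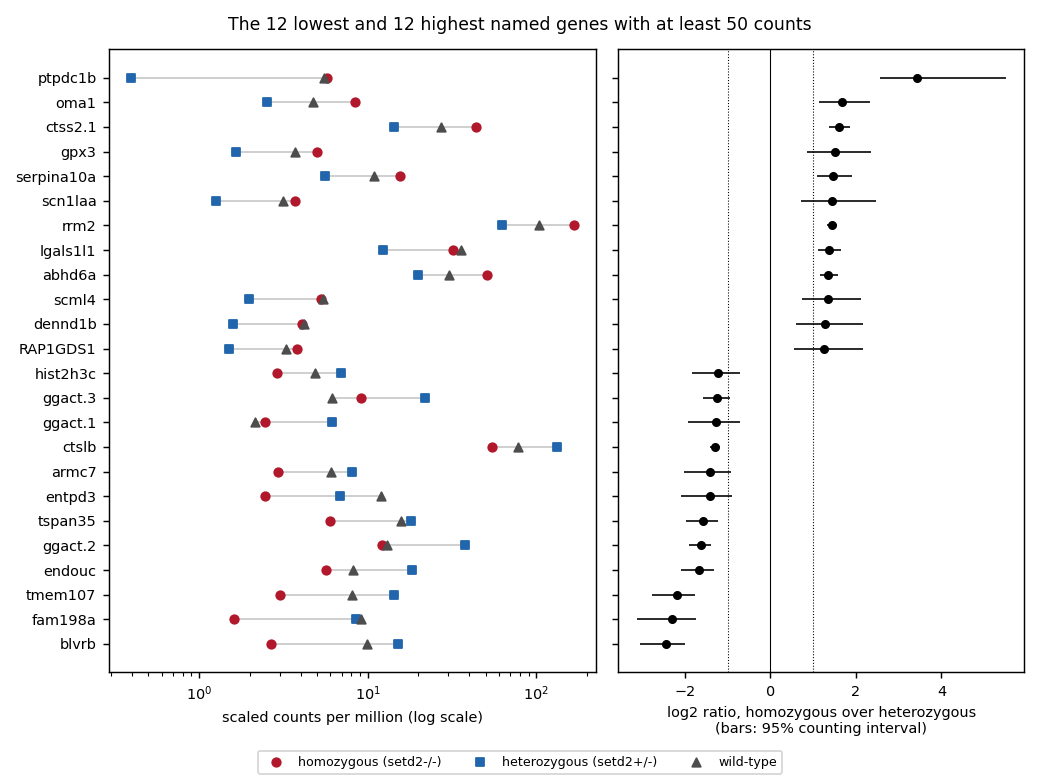
Left, scaled CPM (log scale) of the 12 highest and 12 lowest named genes with at least 50 counts, with circles for the homozygous, squares for the heterozygous and triangles for the wild-type library. Right, the log2 ratio of the homozygous over the heterozygous library with its 95% counting interval. In most rows the wild-type library lies between the mutant libraries. The homozygous library is the farther one from wild-type in rows such as blvrb, fam198a, tmem107, tspan35, entpd3 and armc7. The heterozygous library is the farther one in rows such as ptpdc1b, lgals1l1, scml4, dennd1b and the ggact genes.

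A further member of this group, rrm2, was present under 2 gene identifiers that went opposite ways. The gene encodes the small subunit of ribonucleotide reductase, which makes the building blocks of DNA. The identifier with an exonic length of 2430 bases had 2387 counts in the HO library, 784 in the HE library and 1391 in the WT library (1.43, 1.32 to 1.55). The identifier of 2448 bases had 3828, 5421 and 4238 counts (-0.67). The first identifier held 38.4% of the summed rrm2 counts in the HO library, 12.6% in the HE library and 24.7% in the WT library, while the sums were 6215, 6205 and 5629 counts, a ratio of -0.17 (-0.22 to -0.12). The sum was thus lower by little, and the large ratio is that of 1 of 2 like-named copies, between which the counting may have split reads. Of 121 symbols carried by several measured identifiers, 5 had identifiers beyond counting error on both sides of 0 and 18 had identifiers at least 1 apart.

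The hatching gland was the tissue with the lowest median ratio. This gland on the front of the embryo stores the enzymes that dissolve the egg envelope. Of its 13 measured genes 11 were lower and 2 higher in the HO library. Beyond counting error 7 were lower (53.8%, beside 15.2% of all genes) and 1 was higher (7.69%, beside 13.8%). Among the 7 were the copies he1.1 and he1.2 and both ctslb identifiers, and reads may be shared within each pair. The ctslb pair also belongs to the run of genes described next, so this list and that run overlap. The median was -0.37, or -0.24 with the trend over gene length removed, beside -0.0092 over all genes. It was -0.57 over the 7 shorter genes, -0.074 over the 6 longer ones, and -0.18 over all 13 with FPKM and a pseudocount of 1. Against the WT library the list median was -0.080 for HO and 0.12 for HE. The hatching enzyme he1.1 had 10342 counts in the HO library, 13626 in the HE library and 11231 in the WT library (-0.57, -0.61 to -0.53). Its copy he1.2 had 2178, 3884 and 2674 counts (-1.01, -1.08 to -0.93), and both copies together gave -0.66. Of both, the HO library had least and the HE library most. Also lower were rnasekb (178, 274 and 269 counts, -0.79) and the secretory protein agr2 (925, 1080 and 924 counts, -0.40). The transcription factors that specify the gland were near the middle, with -0.12 for klf17 (199, 192 and 185 counts), -0.027 for xbp1 (4690, 4240 and 4586 counts) and -0.026 for prdm1a (423, 382 and 480 counts). The gland's protease tmprss13a was at 0.73 with few reads (37, 19 and 32 counts, -0.05 to 1.67).

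The genes next to ctslb, most of them cathepsin L genes, had the same order as he1.1 and he1.2 when summed. The reference names ctslb also as hatching gland gene 1 (hgg1), and lists a run of genes around it on 1 chromosome. Of its 12 counted identifiers 9 have a cathepsin L name in the reference, and 3 do not (si:dkey-239j18.3 and both named si:dkey-26g8.4). Most carry only clone names, and they were singled out after their values were seen. The 12 counted identifiers of the run summed to 16015 counts (1126 CPM) in the HO library, 24507 (1943 CPM) in the HE library and 17186 (1279 CPM) in the WT library, a ratio of -0.79 (-0.82 to -0.76). Of them 11 had a ratio below 0. The member with most reads, zgc:174153, had 8546, 12033 and 9137 counts (-0.67, -0.71 to -0.63). The lowest ratios were those of si:dkey-239j18.2 (16, 116 and 27 counts, -2.87), si:dkey-26g8.5 (164, 691 and 279 counts, -2.23) and si:dkey-239j18.3 (359, 1147 and 646 counts, -1.84). The pair of ctslb identifiers had -1.29 (773, 1684 and 1041 counts) and -0.37 (1158, 1329 and 1054 counts), and zgc:174855 had -1.28 (1638, 3526 and 2061 counts). Of the pair named si:dkey-269i1.4, one was at -0.92 (863, 1446 and 602 counts) and the other at 0.35 (865, 601 and 721 counts), and reads may be shared among these copies. Of the 3 cathepsin L identifiers elsewhere in the genome, ctsla had by far the most reads (30168, 24224 and 28682 counts, 0.14). The others were ctsll, which was lower (96, 130 and 221 counts, -0.60, -1.01 to -0.22), and ctsl.1 at few reads (18, 9 and 13 counts, 0.71).

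**Figure D3:**
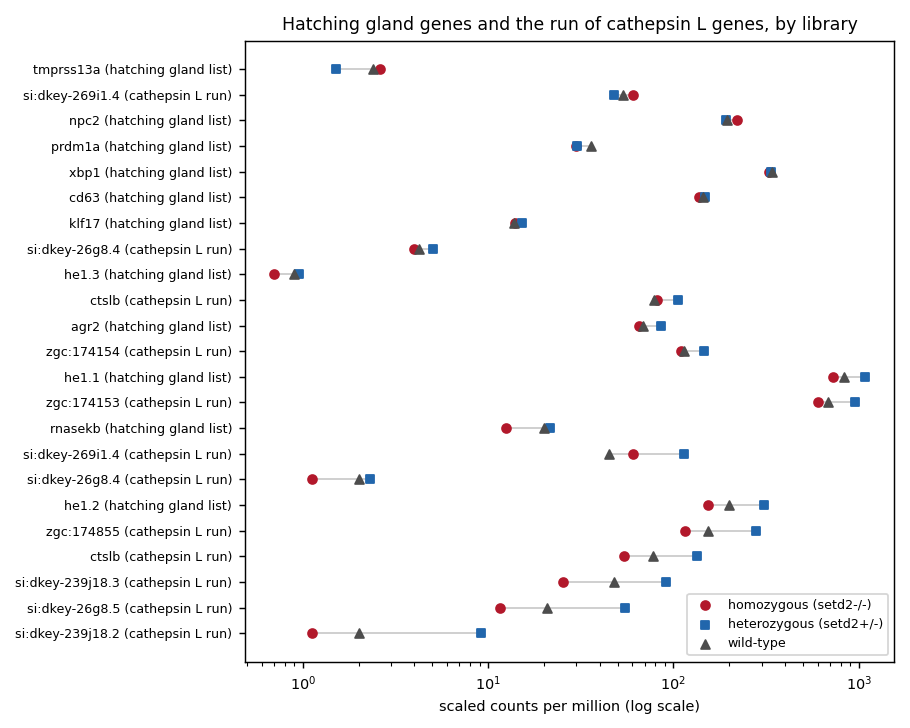
Scaled CPM (log scale) of hatching gland genes and of the run around ctslb, in which 9 of 12 identifiers have a cathepsin L name, with circles for the homozygous, squares for the heterozygous and triangles for the wild-type library, ordered by the log2 ratio of homozygous over heterozygous. In the lower rows, from ctslb and he1.2 down to si:dkey-239j18.2, the heterozygous library is highest, the homozygous lowest and the wild-type between them, while xbp1, klf17, cd63 and prdm1a have nearly the same level in all 3.

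The ratios also followed gene length. In 20 bins of exonic length, the shortest genes (62 to 826 bases) had a median of -0.11 and the next bin -0.13, and the longest genes (7613 to 98586 bases) had 0.18. Every gene list has therefore a second median, from which the median of all genes of the same length was subtracted. Between the HO and WT libraries the trend was smaller, with medians of -0.083 in the shortest bin and 0.057 in the longest. What the length trend comes from was not tested. The fast muscle list showed the trend within 1 tissue. Its median over 60 genes was 0.022, with 34 higher and 26 lower, but of the 30 genes longer than 2739.5 bases 26 were higher (median 0.12), and of the 30 shorter ones 8 were higher (median -0.15). The long genes include the giant sarcomere proteins nebulin (neb, with 1407 counts in the HO library, 809 in the HE library and 1371 in the WT library, 0.62, 0.50 to 0.75) and titin (ttn.2, 1586, 1010 and 1429 counts, 0.48). They also include the channels of the calcium release unit ryr1b (478, 276 and 403 counts, 0.62) and cacna1sb (257, 127 and 176 counts, 0.83). The short ones include the parvalbumin pvalb2 (32538, 35824 and 34481 counts, -0.31) and the troponin tnni2a.4 (17513, 19282 and 15438 counts, -0.31). After subtraction of the trend, the longer genes had a median of 0.072 and the shorter ones -0.054. Slow muscle genes had a median of -0.042 (4 of 14 higher), with smyhc1, a slow myosin, at 0.25 (5879, 4390 and 4412 counts), and regulators of muscle formation had a median of -0.016 (10 of 20 higher), with myod1 at 0.072 (377, 318 and 344 counts).

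**Figure D4:**
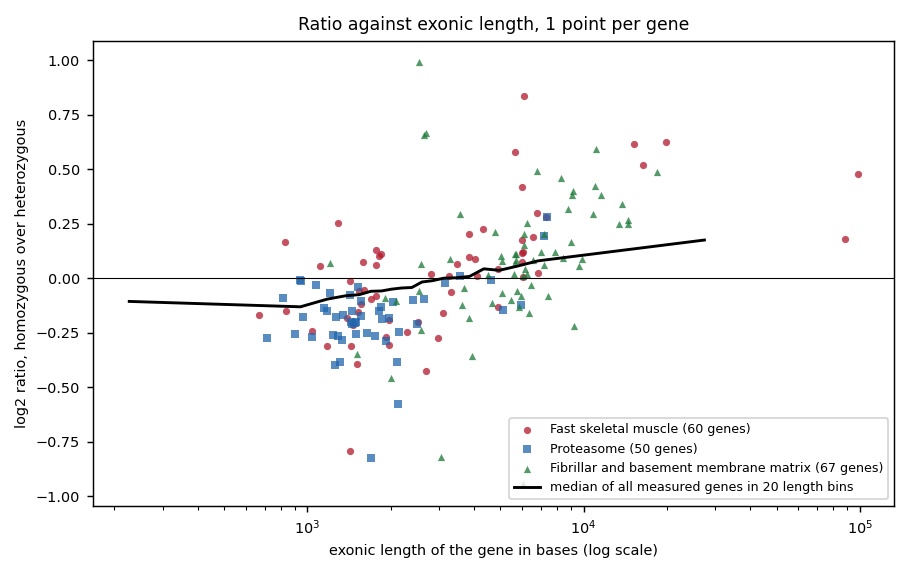
The log2 ratio of the homozygous over the heterozygous library against exonic length in bases (log scale), 1 point per gene, for fast muscle (circles), proteasome (squares) and matrix genes (triangles), with the median of all measured genes in 20 length bins as a line. The line runs from -0.11 at the short end to 0.18 at the long end, muscle and matrix genes lie on both sides of it, and most proteasome genes lie under it.

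Genes of the synapse had the highest median of the 42 lists. The median was 0.10, or 0.076 with the length trend removed, which is below the myeloid and heart lists (0.10 each). Of 95 measured synapse genes 66 were higher and 29 lower in the HO library. Beyond counting error 26 were higher (27.4%, beside 13.8% of all genes) and 3 lower (3.16%, beside 15.2%). Genes at or above 1 included scn1laa, given above, and the muscle receptor kinase musk of the neuromuscular junction (28, 10 and 27 counts in the HO, HE and WT libraries, 1.17). Of both genes the HE library was low and the HO and WT libraries were close. Genes of transmitter identity beyond counting error were chata of cholinergic neurons (270, 174 and 218 counts, 0.46), th of catecholamine neurons (80, 38 and 61 counts, 0.87) and the glycine transporter slc6a5 (606, 421 and 571 counts, 0.35), while the GABA and glycine vesicle transporter slc32a1 was lower (465, 495 and 476 counts, -0.26) and glra3, a glycine receptor, had the lowest ratio (49, 68 and 56 counts, -0.62). The release protein stxbp1a, with many reads, was at 0.10 (2804, 2315 and 2497 counts). Early neuronal genes had a median of -0.014 (31 of 64 higher) and neural progenitor genes -0.017 (23 of 58 higher), near the median of all genes. In those lists the sensory neuron factor pou4f3 was at -1.64 with few reads (4, 15 and 21 counts).

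Genes were also grouped by the letters of their symbols. Of 279 symbol families with at least 8 measured members, kcnh, potassium channels of the ether-a-go-go type, had the highest median (0.71, 8 of 9 higher, 3 beyond counting error), and cacna, subunits of voltage-gated calcium channels, the next (0.39, 17 of 20 higher, 7 beyond counting error), beside 13.8% of all genes. Other channel families were nearer the middle, as scn, sodium channels (0.14, with 3 of 13 higher and 1 lower beyond counting error), and kcnk, potassium channels (0.17, with 1 of 12 higher and 2 lower beyond it). Most members had few reads, as kcnh5a (16, 3 and 15 counts in the HO, HE and WT libraries, 1.72), kcnh7 (70, 51 and 70 counts, 0.27) and cacna1fb of photoreceptors (25, 5 and 15 counts, 1.81). The calcium channel gene with most reads, cacna1aa, had 414 counts in the HO library, 255 in the HE library and 443 in the WT library (0.52, 0.30 to 0.76). In these 4 genes the HE library was the low one. The families ank (ankyrins, 0.37), dnah (axonemal dyneins, 0.32), grm (metabotropic glutamate receptors, 0.31) and ppm (protein phosphatases, 0.30) followed. Their members with most reads were ank2b (2968, 2054 and 2861 counts, 0.36, or 0.18 with the length trend removed), dnah5 (103, 86 and 64 counts, 0.09), grm2b (268, 205 and 197 counts, 0.21) and ppm1g (3050, 2727 and 2713 counts, -0.01). The dnah family had a median exonic length of 12711 bases, and its median was 0.14 with the length trend removed. The lowest families were lgals (galectins, -0.28), adra (adrenergic receptors, -0.27), tnni (troponin I, -0.26), anapc (anaphase-promoting complex, -0.26, with 9 of 10 lower), mgat (sugar transferases, -0.26) and hoxc (-0.26, with 13 of 15 lower). The adra family had few reads (median mean count 21.5), and none of its 8 members was beyond counting error. Lower beyond it were 4 of 10 lgals, 4 of 8 tnni, 4 of 10 anapc, 3 of 8 mgat and 5 of 15 hoxc genes, beside 15.2% of all genes. Higher beyond it were 2 lgals genes and none of the other families. The galectins were spread widely, with lgals1l1 at 1.37 in the same family.

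The proteasome, which degrades proteins tagged with ubiquitin, was lower almost throughout. Of 50 measured genes 47 were lower, 32 of them beyond counting error (64.0% of the list, beside 15.2% of all genes). Higher beyond it was 1 gene (2.0%, beside 13.8%). Counting intervals narrow with more reads, and these genes had a median mean count of 1411. The median ratio was -0.18, and -0.11 with the length trend removed. Set against the WT library, which both share, the median was -0.054 for HO and 0.12 for HE, so that the HE library was the farther one. All 8 psma and all 8 psmb genes, which form the core particle, were below 0, with medians of -0.17 and -0.26. In single genes the differences were small. The core subunit psma8 had 3014 counts in the HO library, 3003 in the HE library and 2983 in the WT library (-0.17, -0.24 to -0.09), psmb5, a catalytic subunit, had 2178, 2521 and 2263 counts (-0.38), and the immune form psmb10 had 195, 259 and 216 counts (-0.58). The long activator psme4b was the exception (1456, 1061 and 1172 counts, 0.28). Folding genes of the endoplasmic reticulum had a median of -0.13, with 43 of 58 lower. Beyond counting error 28 were lower (48.3%, beside 15.2% of all genes) and 5 higher (8.62%, beside 13.8%). Against the WT library their median was -0.043 for HO and 0.073 for HE. Among them sec61g (1806, 2192 and 2248 counts, -0.45) and the collagen chaperone serpinh1b (3021, 3509 and 2367 counts, -0.39) were lower, and selenos, of the degradation channel, was higher (871, 431 and 606 counts, 0.84). Genes of fatty acid synthesis and oxidation had a median of -0.13, with 48 of 63 lower. Beyond counting error 22 were lower (34.9%, beside 15.2% of all genes) and 2 higher (3.17%, beside 13.8%). Among the lower ones were the oxidation enzymes eci2 (262, 348 and 385 counts, -0.58), acads (237, 299 and 291 counts, -0.50) and hadhb (1265, 1421 and 1425 counts, -0.34). The triglyceride lipase pnpla2 had 17, 6 and 16 counts (1.11, -0.08 to 2.96). Splicing genes had a median of -0.083 (80 of 115 lower), and none was at or past 0.5. Beyond counting error 50 were lower (43.5%, beside 15.2% of all genes) and 10 higher (8.7%, beside 13.8%). The splicing genes too had many reads, with a median mean count of 1386. Against the WT library their median was -0.014 for HO and 0.056 for HE. Genes of the mitochondrial genome, 10 of 13 lower, had a median of -0.095, which turned to 0.0065 with the length trend removed, and mt-co1 was at -0.057 (145493, 134301 and 130208 counts). In all these lists most genes differed by less than 0.5.

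**Figure D5:**
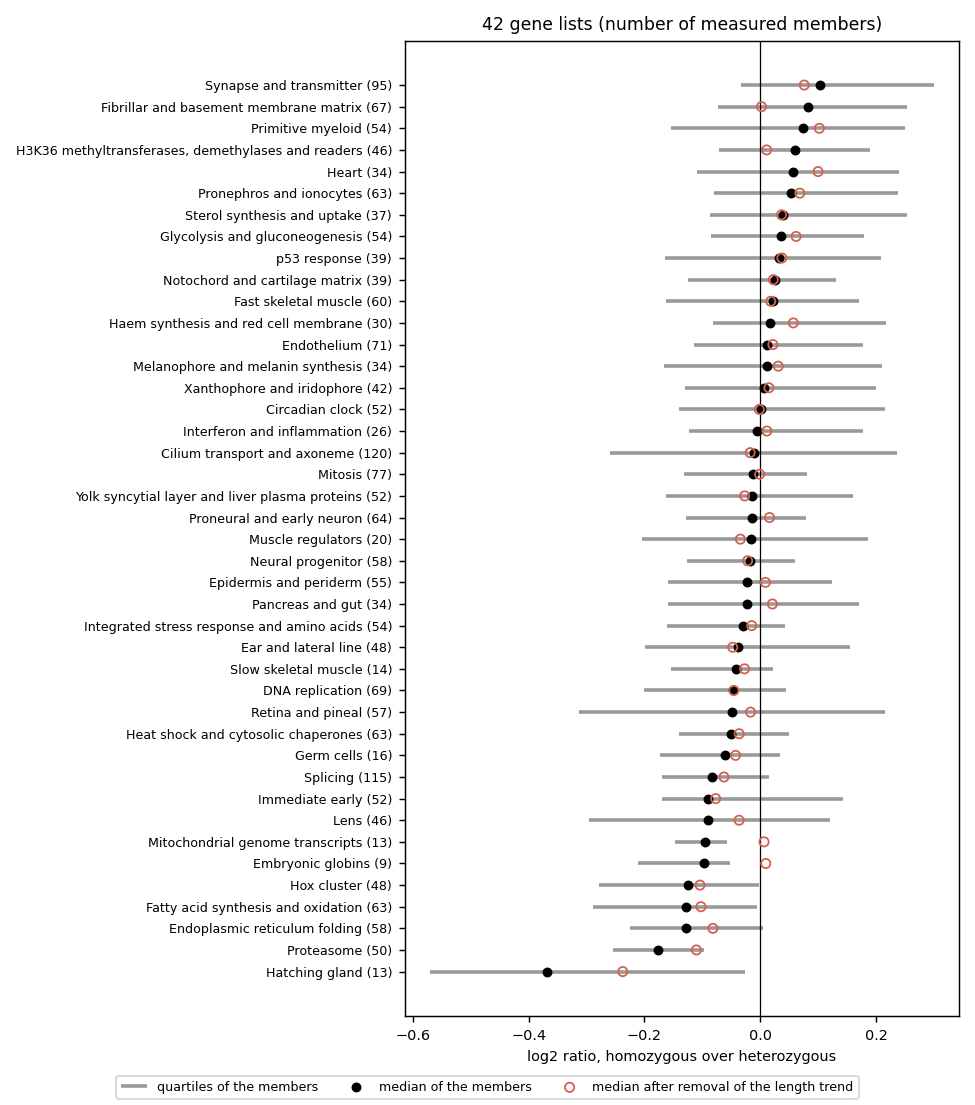
Median (filled circle) and quartiles (grey bar) of the log2 ratio of homozygous over heterozygous in 42 gene lists, with the number of measured members in parentheses, and the median after removal of the length trend (open circle). Hatching gland and proteasome genes are lowest, with medians of -0.37 and -0.18, synapse genes are highest, with 0.10, and the matrix list moves to 0.0020 when the length trend is removed.

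Hox genes, which set position along the body axis, were lower in 36 of 48 cases. Their median was -0.12, or -0.10 with the length trend removed. Beyond counting error 12 of 48 were lower, beside 15.2% of all genes, and 2 higher (4.17%, beside 13.8%). At or below -0.5 were 6 of 48, beside 6.72% of all genes. Against the WT library the list median was -0.039 for HO and 0.077 for HE, so the HE library was the farther one. The posterior gene hoxd13a had 17 counts in the HO library, 40 in the HE library and 41 in the WT library (-1.30, -2.32 to -0.56). The hoxc cluster held 4 of the 6, as hoxc10a (111, 142 and 118 counts, -0.52) and hoxc11a (127, 161 and 126 counts, -0.51). In these 2 genes the WT library was close to the HO library. Immediate early genes, which respond to stimulation within minutes, had a median of -0.090 (34 of 52 lower), with fosab at -0.79 (143, 220 and 178 counts) and fosl1a at 0.92 (53, 24 and 109 counts). Circadian clock genes had a median of 0.0017, with tefb at 0.68 (227, 125 and 273 counts) and arntl2 at -0.68 (246, 351 and 361 counts).

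In blood, the haem synthesis and red cell membrane list had a median of 0.016 (16 of 30 higher), with blvrb far below the rest. The 9 globin genes, which carry oxygen, had a median of -0.097 (7 lower), which turned to 0.0095 with the length trend removed. With most reads were hbae3 (29866, 30658 and 28165 counts in the HO, HE and WT libraries, -0.21) and hbbe1.3 (13852, 14411 and 5875 counts, -0.23), at -0.10 and -0.12 with the length trend removed. The highest ratio was that of hbae1.1 (1905, 1261 and 819 counts, 0.42), and the lowest that of hbbe1.2 (1937, 2309 and 1909 counts, -0.43). In hbbe1.3, hbbe1.1 (10139, 9459 and 3218 counts, -0.073) and hbae1.1 the WT library was well below both mutant libraries. Primitive myeloid genes had a median of 0.074 (30 of 54 higher), and of -0.041 over members with a mean of at least 100 counts. Beyond counting error 3 were higher (5.56%, beside 13.8% of all genes) and 8 lower (14.8%, beside 15.2%). The granule enzyme mpx (597, 699 and 524 counts, -0.40) and ptpn6 were lower, and the matrix protease mmp9 (151, 78 and 179 counts, 0.77) and ctss2.1 were higher. Endothelial genes had a median of 0.012 (38 of 71 higher), with kdrl at 0.23 (886, 671 and 828 counts), notch1b at 0.44 (4097, 2680 and 3574 counts, 0.26 with the length trend removed), and, at few reads, the lymphatic and venous gene lyve1a at -1.47 (8, 23 and 23 counts) and thsd1 at -1.23 (6, 15 and 9 counts). Heart genes had a median of 0.057 (21 of 34 higher), with myl7 at -0.11 (539, 517 and 540 counts) and the cardiac release channel ryr2b at 1.37 (47, 15 and 41 counts, 0.61 to 2.42).

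Genes that the yolk syncytial layer and liver secrete had a median of -0.014 over 52 genes (24 higher). Apolipoprotein B, the long protein of the lipoprotein particle that exports yolk lipid, was higher. Its gene apobb.1 had 125312 counts in the HO library, 79342 in the HE library and 101435 in the WT library (0.49, 0.47 to 0.50, or 0.31 with the length trend removed), with apobb.2 at 0.42 (3854, 2553 and 3110 counts) and apoba at 0.36 (15627, 10788 and 13594 counts). Of these genes the HO library had most and the HE library least. Apolipoprotein A-I genes were near 0, with 0.084 for apoa1a (72465, 60946 and 71101 counts) and -0.027 for apoa1b (60315, 54532 and 58851 counts). The copper carrier ceruloplasmin was higher (cp, 2067, 1234 and 1295 counts, 0.57), and the fibrinogens fga (2645, 3002 and 2923 counts, -0.36) and fgb (1751, 1907 and 1939 counts, -0.30), the retinol carrier rbp4 (5969, 6487 and 5968 counts, -0.29) and fabp11b (125, 179 and 168 counts, -0.68) were lower. The sterol list had a median of 0.039 (21 of 37 higher) and contained the lipid exporter abca1b at 0.41 (4504, 3012 and 4341 counts, 0.23 with the length trend removed) and the mevalonate pathway kinase pmvk at -1.05 with few reads (12, 24 and 25 counts).

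In the eye, lens genes had a median of -0.090 (29 of 46 lower), or -0.037 with the length trend removed. Beyond counting error 16 were lower (34.8%, beside 15.2% of all genes) and 5 higher (10.9%, beside 13.8%). Against the WT library the list median was 0.32 for HO and 0.33 for HE, so both mutant libraries lay above it. The beta crystallins crybb1 (242, 428 and 91 counts in the HO, HE and WT libraries, -0.99) and cryba1b (447, 613 and 239 counts, -0.63) were lower in the HO than in the HE library, and least in the WT library. The crystallin cryba4, with 639, 480 and 140 counts, was at 0.24, and crybb1l3, with 10, 26 and 9 counts, at -1.37. Retina and pineal genes had a median of -0.049 (26 of 57 higher), with the photoreceptor genes rcvrnb at -1.01 (32, 59 and 44 counts), gnb3a at 1.18 (18, 6 and 11 counts) and pde6gb at 0.94 (470, 217 and 352 counts, 0.70 to 1.18). Ear and lateral line genes had a median of -0.039 (20 of 48 higher), and cilium genes -0.011 (58 of 120 higher). The cilium list holds transport and axoneme genes, and not tmem107, given above. Its members past 1 all had few reads. They were cfap161 at 1.98 (24, 4 and 12 counts), 1 of 2 dnah11 identifiers at 1.38 (18, 5 and 17 counts), kif17 at -1.87 (4, 18 and 8 counts) and tekt4 at -1.04 (11, 22 and 10 counts). The other dnah11 identifier was at 0.30, and both together had 88, 55 and 102 counts (0.51, 0.003 to 1.02).

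Pigment genes were measured in embryos that may have been kept in PTU, which blocks melanin synthesis. Of 34 melanophore genes 18 were higher, with a median of 0.011. Beyond counting error 12 were higher (35.3%, beside 13.8% of all genes) and 4 lower (11.8%, beside 15.2%). At or above 0.5 were 6 genes, beside 7.65% of all genes, and none was at or below -0.5, beside 6.72%. The 6 were rab38c of melanosome transport (65, 28 and 35 counts in the HO, HE and WT libraries, 0.99), the melanocortin receptor mc1r (63, 31 and 56 counts, 0.81), slc24a5, the golden gene (248, 137 and 196 counts, 0.68), oca2 (426, 262 and 330 counts, 0.53), the receptor kita (276, 170 and 276 counts, 0.52) and myo5aa (702, 439 and 666 counts, 0.50). In all 6 the HE library was lowest. The melanosome genes with most reads did not follow them, with dct, an enzyme of melanin synthesis, at 0.020 (4151, 3633 and 4090 counts) and the fibril protein pmela at 0.065 (6750, 5723 and 6353 counts). Xanthophore and iridophore genes had a median of 0.0057 (22 of 42 higher), with the pteridine enzyme gch2 at -0.31 (7788, 8592 and 8766 counts) and pnp4b at 1.15 (30, 11 and 22 counts).

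Genes of fibrillar and basement membrane matrix were higher in 45 of 67 cases, with a median of 0.082. Beyond counting error 28 were higher (41.8%, beside 13.8% of all genes) and 10 lower (14.9%, beside 15.2%). These matrix genes had a median mean count of 1310, and counting intervals narrow with more reads. Their median exonic length was 6018 bases, and with the length trend removed the median was 0.0020. Of those with most reads, postnb had 16127, 15682 and 15125 counts in the HO, HE and WT libraries (-0.13) and col1a2 14488, 13374 and 13004 counts (-0.057), while the long col12a1b had 2932, 1721 and 2393 counts (0.60). The laminin lama2 had the highest ratio at few reads (38, 16 and 35 counts, 0.99). Skin genes had a median of -0.022 (25 of 55 higher), with the keratin krt4 at -0.034 (147070, 133538 and 124712 counts) and the hemidesmosome integrin itgb4 at 0.48 (1088, 691 and 911 counts). Notochord and cartilage genes had a median of 0.025 (20 of 39 higher), with ihha at -1.15 at few reads (10, 22 and 11 counts). Of kidney duct and ionocyte genes 15 were higher beyond counting error (23.8%, beside 13.8% of all genes) and 6 lower (9.52%, beside 15.2%). Their median was 0.053, with 41 of 63 higher. Among them were the endocytic receptors of the kidney tubule lrp2a (812, 503 and 602 counts, 0.52) and cubn (61, 30 and 56 counts, 0.81), the podocyte gene nphs1 (98, 56 and 71 counts, 0.62) and the ionocyte cotransporter slc12a10.3 (39, 11 and 19 counts, 1.5). Pancreas and gut genes had a median of -0.022 (15 of 34 higher), with the somatostatin gene sst2 at -1.0 (31, 57 and 56 counts) and the brush border gene vil1 at 1.17 (23, 8 and 22 counts). Germ cell genes had a median of -0.061 (5 of 16 higher), with henmt1, which methylates piRNAs, at -1.68 at few reads (7, 24 and 12 counts).

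Growth and stress lists had medians near 0. DNA replication genes had a median of -0.048, with 45 of 69 lower. Beyond counting error 21 were lower (30.4%, beside 15.2% of all genes) and 7 higher (10.1%, beside 13.8%). Against the WT library the list median was -0.0043 for HO and 0.086 for HE, so the HE library was the farther one. Among the lower ones were the origin recognition genes orc6 (216, 271 and 287 counts in the HO, HE and WT libraries, -0.50) and orc2 (129, 161 and 161 counts, -0.49). In these genes the HO library was the farther one from WT. Mitosis genes had a median of -0.013 (36 of 77 higher). There the 38 longer genes had a median of 0.073 and the 39 shorter ones -0.084, as for the kinetochore protein cenpf (2912, 1974 and 2253 counts, 0.39) and the kinase aurkb (782, 1025 and 739 counts, -0.56). Genes of the p53 response had a median of 0.032 (21 of 39 higher), and those of the integrated stress response and amino acid supply -0.029 (36 of 54 lower). Heat shock and chaperone genes had a median of -0.051 (42 of 63 lower). Beyond counting error 18 of them were lower (28.6%, beside 15.2% of all genes) and 5 higher (7.94%, beside 13.8%). Interferon and inflammation genes had a median of -0.0048 (13 of 26 higher). Beside rrm2, single genes past 1 in these lists were the cystine transporter slc7a11 (16, 35 and 25 counts, -1.20), the heat shock gene hsp70.3 (102, 38 and 94 counts, 1.21), the class I gene mhc1uba (4, 38 and 10 counts, -2.88) and the RNA sensor tlr3 (23, 9 and 21 counts, 1.03). Glycolysis genes had a median of 0.036 (31 of 54 higher), with ldha at 0.36 (2090, 1446 and 1706 counts) and the glucose-releasing enzyme g6pca.1 at 0.74 (135, 71 and 90 counts).

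The other enzymes and readers of histone H3 lysine 36 methylation had small ratios. Of 46 measured genes, setd2 included, 30 were higher and 16 lower, with a median of 0.059, or 0.011 with the length trend removed. Beyond counting error 14 were higher (30.4%, beside 13.8% of all genes) and 4 lower (8.7%, beside 15.2%). Of the methyltransferases that act on the same lysine, nsd1a (1501, 1097 and 1274 counts in the HO, HE and WT libraries, 0.28), nsd3 (1070, 732 and 923 counts, 0.37) and ash1l (1909, 1423 and 1691 counts, 0.25) were higher, and nsd2 (2062, 1774 and 1810 counts, 0.044) and nsd1b (54, 48 and 64 counts, -0.0027) were within counting error of 0. With the length trend removed nsd1a was at 0.10, nsd3 at 0.34 and ash1l at 0.075. Of the DNA methyltransferases that read the mark, dnmt3aa was at 0.47 (197, 126 and 165 counts), and dnmt3ab (770, 769 and 696 counts, -0.17) and dnmt3bb.2 (707, 700 and 595 counts, -0.16) were lower. The lowest ratios were those of setmar at few reads (13, 21 and 6 counts, -0.77) and of the oxygenase riox2 (120, 157 and 127 counts, -0.55), and setd5, a related SET domain gene, was at 0.51 (351, 218 and 306 counts).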

How the data were processed

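Per the labels, RNA of whole embryos was extracted with Trizol. The paper names a stranded TruSeq kit, TopHat, GRCz10 and Cufflinks, and the submitters' processing notes name HISAT2 2.0.2 and GRCz11, while the labels name a TruSeq RNA and a VAHTS kit. The counting tool, annotation and strand setting are not given in the sources used here, so reads of overlapping and antisense genes may be shared. The deposited counts are reads per gene without normalization. The deposited FPKM are the authors' counts divided by exonic length and by summed counts (largest difference 0.005). Per-library and series tables held 0 differing values, and 1 FPKM column was left out, since the genotype in its heading is not that of its own table.

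TMM factors (1.004 in HO, 0.9886 in HE, 1.007 in WT) came from edgeR 4.0.16 in R 4.3.3 on all genes, and counts of 18966 genes were turned to log2 CPM with a prior count of 2. Ratio intervals come from the exact (Clopper-Pearson) share of HO in HO plus HE counts. No p-value was computed. The 42 lists were written from gene symbols. Members and lists were chosen with earlier results of these data known. Named genes are setd2, the 12 highest and 12 lowest named genes with at least 50 counts in HO or HE, the 2 most abundant and the extreme members of each list with all past 1, and 6 symbol families on each side (at least 8 members). Other genes named here were chosen after their values were seen. Gene order and further names come from GRCz12tu, in which 15531 measured symbols were unique and found. Steps were tested on simulated data. Alternatives were DESeq2 1.42.0 size factors, total counts, a prior count of 0.25, no filter, a minimum mean of 100, FPKM with a pseudocount of 1 or 0.1, and removal of the length trend in 20 bins. Removal of length and level together was added after seeing the data. Python 3.11.15, numpy 2.4.6, pandas 2.3.3, scipy 1.17.1 and matplotlib 3.10.9 were used. Ribosomal genes and nuclear genes of oxidative phosphorylation have no list here. A gene that the naming rule picks is not reported here.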

Additional observations from a re-analysis of the deposited data

How the results depend on the processing

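No paired analysis was possible because each genotype has 1 library. Counts of genes past a ratio depended on the filter and unit. At or above 1 there were 885 genes with no filter, 13 with a minimum mean of 100 counts and 35 with FPKM and a pseudocount of 1, and at or below -1 there were 1047, 20 and 40. At or above 0.5 there were 3729, 291 and 493, and at or below -0.5 there were 3174, 268 and 458. The filters change how many genes enter, and the cause of the drop with FPKM was not tested. For setd2 the ratio was 0.25 with the length trend removed and 0.28 with length and level removed, against 0.42 in the report. No gene past 1 that the text names changed its sign. Among the 42 list medians, the length trend moved 3 beyond the interval that order statistics of the members give (matrix, endoplasmic reticulum folding and proteasome genes), length and level together moved 7, FPKM with a pseudocount of 1 moved 1, and the other settings none. The median of the 40 genes beside setd2 stayed within such an interval in all 9 alternatives. Subtracting length and level gave -0.069 for the proteasome, -0.044 for folding, -0.035 for splicing and -0.0044 for heat shock genes. With 1 library per genotype, biological spread is unknown, and the counting intervals understate the error of every ratio. Depth limits the genes with few reads, whose intervals are widest, as tmprss13a and thsd1 show. The genotype cannot be told apart from differences between pools of embryos.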
